A study of Mus musculus with 5 samples.

Results

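Necroptosis, pyroptosis and death-ligand signalling were followed through 10 genes, chosen by symbol, of 32285 genes in the count matrices of 5 single-nucleus RNA-seq libraries. The list held the nucleic-acid sensor Zbp1, the kinases Ripk1 and Ripk3, the initiator caspase Casp8, the executor Mlkl, the inflammatory caspases Casp1 and Casp4, the pore former Gsdmd, the XIAP-binding factor Xaf1 and the death ligand Tnfsf10. Each library came from 1 mouse. The 2 R241E mice (Tmem119-creERT2-cGas wt/R241E) carried 1 conditional copy of Cgas with the R241E change, which weakens the binding of the DNA sensor cGAS to nucleosomes, and the 3 WT mice (Tmem119-creERT2-cGas wt/wt) carried the wild-type gene. Both groups carried the Tmem119-creERT2 driver, a tamoxifen-dependent Cre which, by the study's account, works chiefly in microglia but also in other brain macrophages. The conditional mice were made in C57BL/6J zygotes, and the methods state that tamoxifen was given to young adult mice. For the controls, the study's results name heterozygotes of the allele, whereas its methods and the sample titles name wild-type Cgas. The titles were followed. The labels give hippocampus as the source and microglia as the cell type, and nuclei were sorted as positive for the DNA dye DAPI and negative for NeuN and Olig2, nuclear proteins of neurons and of the oligodendrocyte lineage.

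In necroptosis, ZBP1 engages RIPK1 and RIPK3 through a shared motif, and death receptors can also lead to these kinases. RIPK3 phosphorylates MLKL, and MLKL ruptures the plasma membrane, whereas caspase-8 cuts the kinases and restrains this route. In pyroptosis, caspase-1, activated in inflammasomes, and caspase-4 (also named caspase-11 in mice), activated by cytosolic lipopolysaccharide, cleave gasdermin D, which then forms membrane pores. TRAIL, the product of Tnfsf10, binds death receptors that recruit caspase-8. Several of these genes, among them Zbp1, Xaf1 and Tnfsf10, are known targets of interferon, which cGAS induces through STING.

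Promoter sequence was read for the members listed in the RefSeq windows of assembly GRCm38.p6, which reach from 250 bases before to 50 bases after a start site and cover 8 of the 10 genes. None was listed for Zbp1 and Gsdmd. The interferon-stimulated response element (ISRE) core, spelled GAAANNGAAA and searched on both strands, occurred in 1131 of 32851 windows (3.44%). Among the members it occurred in the window of 1 of the start sites of Ripk1. The GAS core TTCNNNGAA, palindromic in its fixed bases, was present in 8.30% of windows, and among the members only in that same Ripk1 window, which held 2 of them, one overlapping the ISRE core. The letters of Ripk1 and of a pair of genes that rose in R241E microglia are shown so that their start sites can be compared. Capitals mark the ISRE core. The stretches are chr13:34002779-34002878 (plus strand, its last 5 bases lying past the start site), chr11:72301529-72301628 (plus strand) and chr3:27316977-27317076 (plus strand), each of 100 bases.
Ripk1: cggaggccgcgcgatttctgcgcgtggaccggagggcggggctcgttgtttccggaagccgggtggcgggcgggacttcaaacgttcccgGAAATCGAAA
Xaf1: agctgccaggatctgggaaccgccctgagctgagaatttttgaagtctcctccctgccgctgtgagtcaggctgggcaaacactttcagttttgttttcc
Tnfsf10: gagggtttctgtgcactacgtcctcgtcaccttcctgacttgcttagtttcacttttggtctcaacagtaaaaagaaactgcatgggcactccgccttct
A match is a run of letters and no measured binding site, and the lack of one in Xaf1 and Tnfsf10 says only that these letters do not stand in these windows.

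The libraries held 1381 to 2490 nuclei and 4183709 to 10130667 unique molecular identifiers (UMIs, each standing for 1 captured RNA molecule), and no pair of libraries shared more than 2 cell barcodes. Of 9748 nuclei 9505 passed the limits, and 5379 of these resembled microglia by their markers (524 to 1471 per library). Within this class, 87.5% of R241E nuclei lay in clusters 1, 2 and 10, which held 6.29% of WT nuclei. The WT nuclei lay mostly in clusters 3 and 18. Cluster 2 was led by interferon-response genes such as Ifi204, Oas2 and Cxcl10, and cluster 10 by C1qa, C1qb and C1qc. The defining markers P2ry12, Cx3cr1 and Csf1r were at 1018 to 1370 CPM (UMIs of a gene scaled to 1000000 UMIs of the class sum) in every library of microglia. Cgas itself stood at 83.2 and 87.9 CPM in R241E microglia, against 66.7, 72.4 and 74.4 CPM in WT, values that do not read the base change and therefore do not check the genotype. Median depth in microglia was 3044 and 2573 UMIs per nucleus in R241E, and 2493, 2612 and 2061 in WT. Names of classes were rebuilt from the counts and stand for resemblance only.

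Most members fell into 3 patterns across 8 cell classes, within which all orders of levels are given. Casp8, Gsdmd, Casp1 and Casp4 were highest in the myeloid classes, that is microglia, border-associated macrophages (BAMs, the macrophages of the meninges and vessel borders) and the monocyte or neutrophil cluster. Ripk1 and Xaf1 were found in every class and were less confined to the myeloid ones. Ripk3 and Mlkl were close to the detection limit throughout. Zbp1 and Tnfsf10 followed none of these patterns and are given on their own. Classes came from clusters of the same counts, so that the levels are a description with no test between classes. The monocyte or neutrophil cluster was also led by Cd74 and Igkc, so it mixed cell types, and WT replicate 1 held only 18 of its nuclei and was left out there. Lymphocyte-like nuclei stand outside these 8 classes, since only 1 WT library held at least 20 of them, and they carried the same 4 genes. In R241E they had 146 ± 15.3 CPM of Casp8, 102 ± 47.4 CPM of Gsdmd, 79.4 ± 32.5 CPM of Casp4 and 68.5 ± 14.8 CPM of Casp1 (n = 2), and in the WT library 127, 108, 90.4 and 36.2 CPM, from 7, 6, 5 and 2 UMIs. Xaf1 was at 146 ± 32.7 CPM in R241E lymphocytes and at 72.3 CPM in the WT library, from 4 UMIs.

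**Figure D1:**
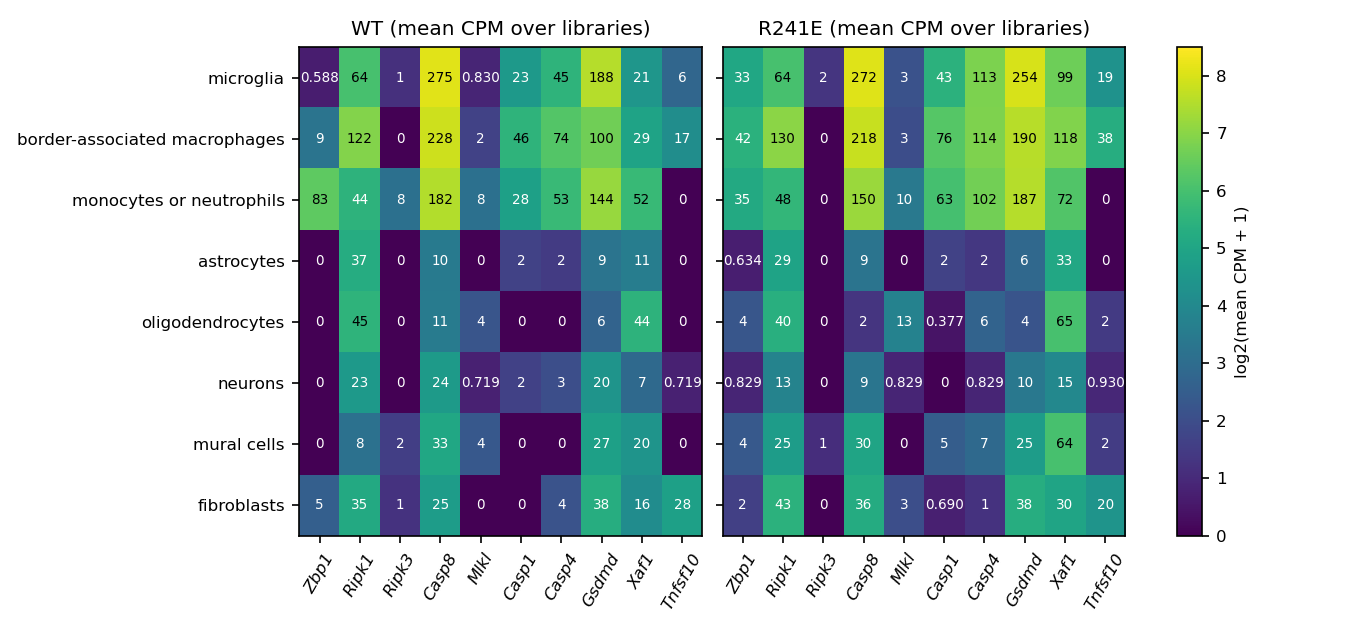
Mean CPM of the 10 genes (columns) in 8 cell classes (rows), for 3 WT libraries on the left and 2 R241E libraries on the right (2 WT libraries for monocytes or neutrophils), with colour on a log2(mean CPM + 1) scale. Casp8 and Gsdmd were highest in the myeloid rows in both genotypes, whereas Ripk3 was at 7.86 CPM or less in every class shown.

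Casp8, the protease that acts below death receptors, was at 275 ± 13.05 CPM in WT microglia (SD, n = 3), at 228 ± 15.0 CPM in WT BAMs and at 182 ± 12.1 CPM in WT monocytes or neutrophils (n = 2). The library ranges of these neighbours did not overlap in WT. In R241E, microglia (272 CPM) were still above BAMs (218 CPM), whose range overlapped that of monocytes or neutrophils. The other 5 of the 8 classes had a WT mean of 32.7 CPM or less. Gsdmd was at 188 ± 31.5 CPM in WT microglia and at 254 ± 6.95 CPM in R241E microglia (n = 2), above BAMs, at 100.2 ± 27.2 and 190.1 ± 9.09 CPM, although the WT range of microglia overlapped that of monocytes or neutrophils. In neurons Casp8 was at 8.29 to 39.6 CPM and Gsdmd at 7.65 to 28.3 CPM. Microglial P2ry12 was at 106 to 189 CPM in the same neuronal sums, and the part of free RNA in these values was not tested.

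Among the 8 classes Casp1 and Casp4 were highest in BAMs in both genotypes. In WT, BAMs led with 45.6 ± 20.9 CPM of Casp1 and 73.6 ± 26.0 CPM of Casp4, followed by monocytes or neutrophils and by microglia (23.3 ± 3.74 and 45.0 ± 10.2 CPM), and these ranges overlapped. In R241E, Casp1 in microglia (43.3 ± 1.35 CPM) was below monocytes or neutrophils (63.1 ± 15.0 CPM) without overlap, whereas Casp4 was at 102 to 114 CPM on average in the 3 myeloid classes, all of which overlapped. In astrocytes, oligodendrocytes, neurons, mural cells and fibroblasts, Casp1 reached at most 9.36 CPM in any library, from 4 UMIs.

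Ripk1, the kinase scaffold of death-receptor complexes, was highest in BAMs, at 122 ± 17.7 CPM in WT and 130.5 ± 15.6 CPM in R241E. Microglia came next, at 63.5 ± 9.70 and 64.4 ± 2.08 CPM, without overlap with BAMs above. WT oligodendrocytes (45.0 ± 3.26 CPM) did not overlap microglia either, whereas the neighbours below, down to fibroblasts, overlapped one another. Xaf1 had another order. In WT, monocytes or neutrophils (52.1 ± 15.3 CPM), oligodendrocytes (43.8 ± 12.3 CPM), BAMs (29.5 ± 28.9 CPM) and microglia (21.2 ± 2.41 CPM) followed each other with overlapping ranges. In R241E, BAMs (118 ± 45.0 CPM) and microglia (98.7 ± 3.30 CPM) led the 8 classes, below the lymphocyte mean. In the R241E libraries the microglial marker P2ry12 was at 17.2 and 20.4 CPM in oligodendrocytes against 1153 and 1259 CPM in microglia.

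Tnfsf10 was read in fibroblasts (27.6 ± 15.5 CPM in WT), in BAMs (16.8 ± 9.98 CPM) and in microglia (5.95 ± 0.801 CPM). No UMI of it was found in astrocytes, or in the monocyte or neutrophil libraries used. Zbp1 was at 83.2 ± 82.5 CPM in the 2 WT libraries of monocytes or neutrophils, where it rested on 9 and 3 UMIs, and at 0.588 ± 0.271 CPM in WT microglia. In WT astrocytes, oligodendrocytes, neurons and mural cells no Zbp1 UMI was found. A count of 0 there allows up to 2.29 CPM in the deepest of those neuronal sums (3 counts), a limit that covers counting error only.

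The question of the genotype comparison was which of these genes changed in microglia, the cells in which the allele is switched on. Zbp1, Xaf1, Tnfsf10, Casp4, Casp1 and Gsdmd were higher in R241E microglia at an adjusted p under 0.05 (edgeR quasi-likelihood test on UMI counts summed per library, Benjamini-Hochberg over 12730 genes), Ripk1 and Casp8 were not called, and Ripk3 and Mlkl had too few counts to pass the filter. Over all genes tested, 769 were called higher (6.04%) and 414 lower, 9.29% in either direction. Zbp1 passed the filter only through the R241E libraries, so its call is partly set by the filter. In the 6 genes called, both R241E libraries were above all WT libraries, as were 20.4% of the genes tested. Summed sequencing counts do not tell more RNA per nucleus from more nuclei with RNA, a point taken up per nucleus further on.

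**Figure D2:**
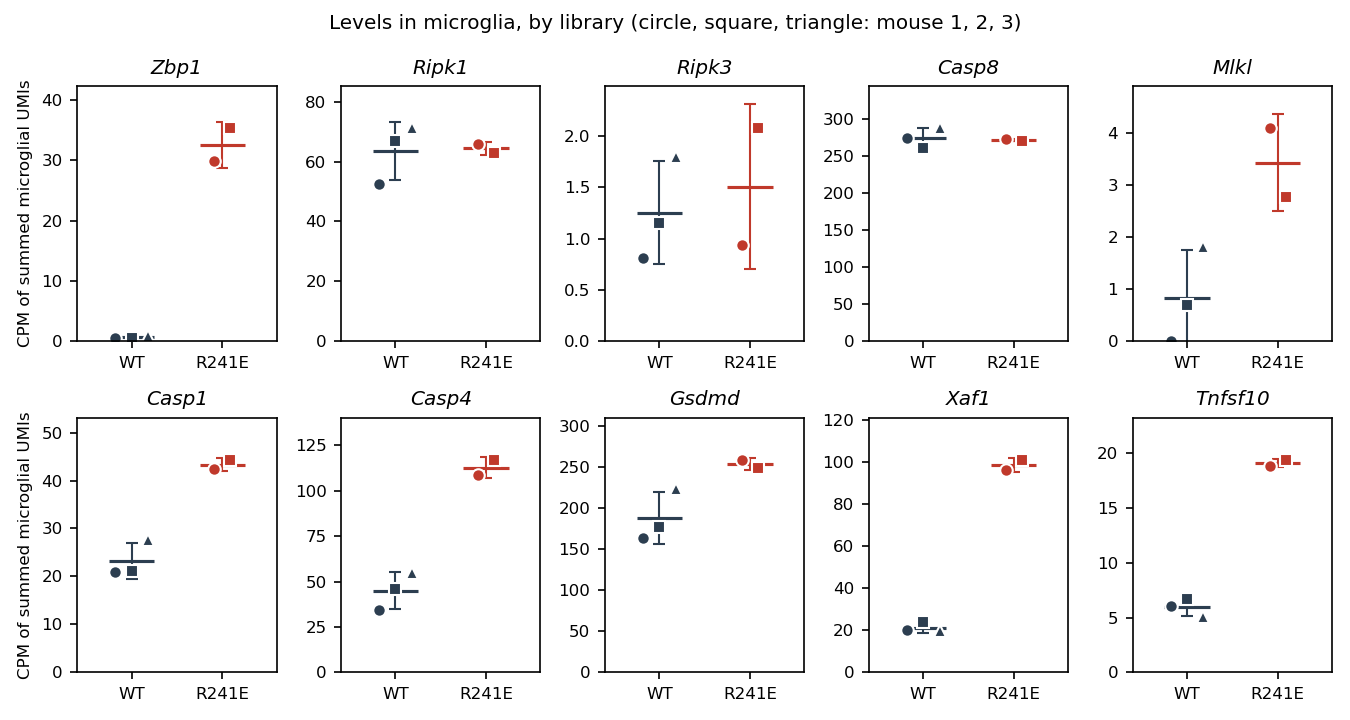
CPM in microglia for each library (points, with circle, square and triangle for mouse 1, 2 and 3), with the mean and SD of each genotype as lines and bars, each gene on its own axis from 0. The R241E points of Zbp1, Xaf1, Tnfsf10, Casp4, Casp1, Gsdmd and Mlkl sit above all WT points, whereas those of Ripk1 and Casp8 lie within the WT range and 1 Ripk3 point lies within it and 1 above it (0.941 and 2.08 CPM).

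Zbp1 (ENSMUSG00000027514, chr2:173206612-173218959), which senses Z-form nucleic acid, was at 29.8 and 35.3 CPM in R241E microglia, from 95 and 51 UMIs. In WT microglia it was at 0.404, 0.461 and 0.900 CPM, from 1, 2 and 3 UMIs. The gene was thus close to undetected in every WT library and clearly read in both R241E libraries. The fitted log2 fold change was 5.64 ± 0.35 (SE, adjusted p = 2.8e-08). Because the WT level rests on 6 UMIs, the ratio of the pooled levels, 53.3, had an exact 95% counting interval of 23.9 to 148. Lymphocytes, which also carry the gene, gave 0 to 1.38 CPM of Cd3e and 0.900 to 2.08 CPM of Skap1 in the microglial sums. Their 11 markers together gave 7.84 to 19.1 CPM there, with 2 to 5 of them at 0. The highest sum was in R241E replicate 1 and the lowest in WT replicate 2. Other marker lists differed between the genotypes in microglia without overlap, some upwards and some downwards. The 6 dendritic cell markers summed to 94.8 and 104 CPM in R241E against 23.0 to 29.7 CPM in WT, with at most 1 at 0 in a library, and the 8 monocyte or neutrophil markers to 737 and 641 CPM against 559 to 577 CPM, with at most 2 at 0. The 8 mural markers summed to 30.8 and 33.9 CPM against 17.0 to 23.4 CPM, with 4 at 0 in WT replicate 1 and none elsewhere. The 8 BAM markers were lower in R241E, at 98.2 and 143 CPM against 211 to 240 CPM, and so were the 6 endothelial markers, at 27.9 and 29.1 CPM against 37.8 to 40.5 CPM, each with at most 2 at 0. The part of such nuclei in the levels of Zbp1 and the other members was not tested.

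Xaf1 (ENSMUSG00000040483, chr11:72301461-72313733), which antagonizes the caspase inhibitor XIAP, was at 96.3 and 101 CPM in R241E microglia and at 20.2, 24.0 and 19.5 CPM in WT. The genotypes were widely apart, and the libraries within each were close. Its log2 fold change was 2.18 ± 0.14 (adjusted p = 6.2e-08), a 4.52-fold difference. The 8 oligodendrocyte markers, none at 0, summed to 226 and 313 CPM in R241E microglia against 129 to 148 CPM in WT, and to 17627 CPM or more in oligodendrocytes themselves, where Xaf1 was at 67.9 CPM or less. Tnfsf10 (ENSMUSG00000039304, chr3:27317077-27339665) was at 18.8 and 19.4 CPM in R241E, from 60 and 28 UMIs, and at 6.06, 6.69 and 5.10 CPM in WT, from 15, 29 and 17 UMIs. The log2 fold change was 1.64 ± 0.26 (adjusted p = 5.7e-04). When each nucleus took the class of its highest marker score in place of its cluster, the Tnfsf10 change was 0.98 and its call was lost (adjusted p = 0.079).

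The inflammatory caspases lie next to each other on chromosome 9, Casp1 (ENSMUSG00000025888) at chr9:5298517-5307281 and Casp4 (ENSMUSG00000033538) at chr9:5308849-5336791, with 1567 bases between them. Casp4 was at 109 and 117 CPM in R241E microglia and at 34.4, 46.1 and 54.6 CPM in WT, a log2 fold change of 1.28 ± 0.15 (adjusted p = 3.5e-05). Casp1 was at 42.4 and 44.3 CPM in R241E against 21.0, 21.2 and 27.6 CPM in WT, a log2 fold change of 0.87 ± 0.17 (adjusted p = 0.0034). Both genes thus separated the genotypes. Without R241E replicate 1, the adjusted p of Casp1 was 0.054, at a log2 fold change of 0.90.

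Gsdmd (ENSMUSG00000022575, chr15:75862144-75867408), the substrate of both caspases, was at 259 and 249 CPM in R241E microglia and at 164, 177 and 224 CPM in WT. Its R241E libraries were above the WT libraries by a narrow margin over WT replicate 3. The log2 fold change was 0.42 ± 0.12 (adjusted p = 0.037), a 1.33-fold difference. This call was the least firm of the 6. It was lost when R241E replicate 1, R241E replicate 2, WT replicate 1 or WT replicate 2 was left out (adjusted p = 0.26, 0.11, 0.15 and 0.15), and with DESeq2, with equal totals per library and with classes by marker score (0.058, 0.087 and 0.12). The log2 fold change stayed between 0.33 and 0.55 over the libraries left out.

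**Figure D3:**
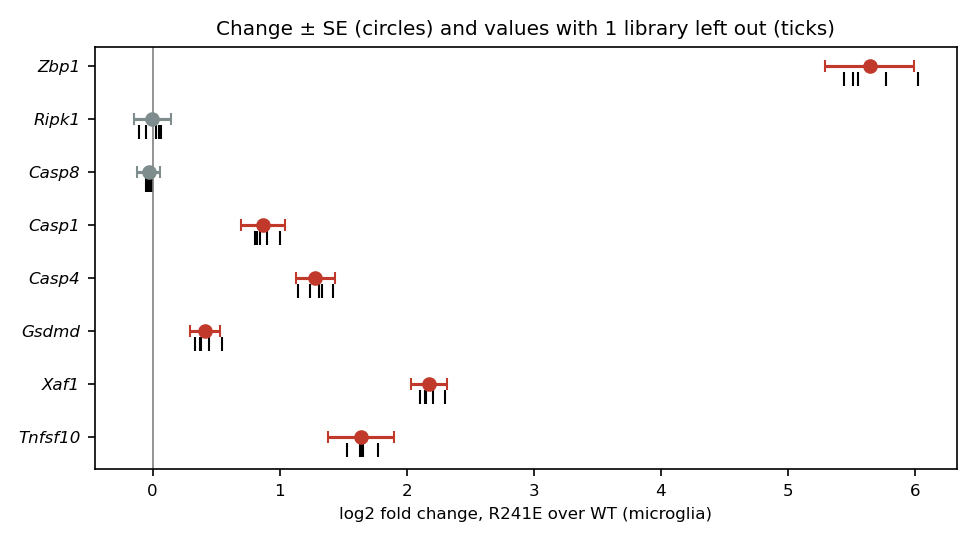
Log2 fold change of R241E over WT in microglia for the 8 genes that passed the filter (circles, bars for SE, red where called at an adjusted p under 0.05), with ticks for the values after 1 library was left out. Zbp1 stands at 5.64 and Xaf1 at 2.18, whereas Ripk1 and Casp8 sit at 0 within their SE.

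Casp8 (ENSMUSG00000026029, chr1:58795233-58847503) was at 273 and 271 CPM in R241E against 275, 261 and 288 CPM in WT microglia, so the R241E libraries lay inside the WT range. The log2 fold change was -0.03 ± 0.09 (adjusted p = 0.91), with a 95% interval of -0.21 to 0.15. Ripk1 (ENSMUSG00000021408, chr13:34002225-34035170) was at 65.9 and 63.0 CPM in R241E against 52.6, 66.9 and 71.1 CPM in WT, again inside the WT range. Its interval was -0.28 to 0.28 on the log2 scale. For both genes an increase of more than 1.21-fold lay outside the interval.

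The necroptosis kinase Ripk3 (ENSMUSG00000022221, chr14:55784995-55788857) gave 3 and 3 UMIs in R241E microglia (0.941 and 2.08 CPM) and 2, 5 and 6 UMIs in WT (0.809, 1.15 and 1.80 CPM). The pooled ratio was 1.01, with a counting interval of 0.315 to 2.85, so a change within that interval was not detectable at this depth. Mlkl (ENSMUSG00000012519, chr8:111311255-111338479), the membrane executor, gave 13 and 4 UMIs in R241E (4.08 and 2.77 CPM) and 0, 3 and 6 UMIs in WT (0, 0.692 and 1.80 CPM). Both R241E libraries were above all WT libraries. The pooled ratio of 4.14 had a counting interval of 1.74 to 10.5, which does not include the spread between mice. Without the filter on low counts, the log2 fold change of Mlkl was 1.95 ± 0.67 with an adjusted p of 0.054, and that of Ripk3 was 0.02 (adjusted p = 0.99). The executor was therefore neither called nor shown to be level.

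To compare sensors with executors, the gap between them in log2(CPM + 1) was taken within each library, so that the library total drops out, and was compared between genotypes. Gaps are not read as one gene being more abundant than another, since capture differs between genes. The gap of Zbp1 over Mlkl was 2.601 and 3.268 in R241E and 0.49, -0.21 and -0.56 in WT, a mean difference of 3.03 log2 units between the genotypes. The gap of Zbp1 over Ripk3 was -0.49 ± 0.11 in WT and 3.77 ± 0.30 in R241E, a difference of 4.27. Both values depend on the pseudocount, because the WT counts are near 0. The gap of Casp4 over Gsdmd was -2.05 ± 0.16 in WT and -1.17 ± 0.11 in R241E (a difference of 0.89), and that of Casp1 over Gsdmd was -2.96 ± 0.05 and -2.52 ± 0.08 (0.44). In all 4 pairs the R241E libraries lay above all WT libraries. The exact two-sided permutation test gave p = 0.1 for each, and 0.1 after adjustment over the 4 comparisons, which is the smallest value that 2 against 3 libraries allow and cannot pass a threshold of 0.05. Zbp1, Casp4 and Casp1 were called higher in these same sums, so the gaps partly restate those calls and are no separate support. How many other gene pairs separate the genotypes in this way was not tested.

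**Figure D4:**
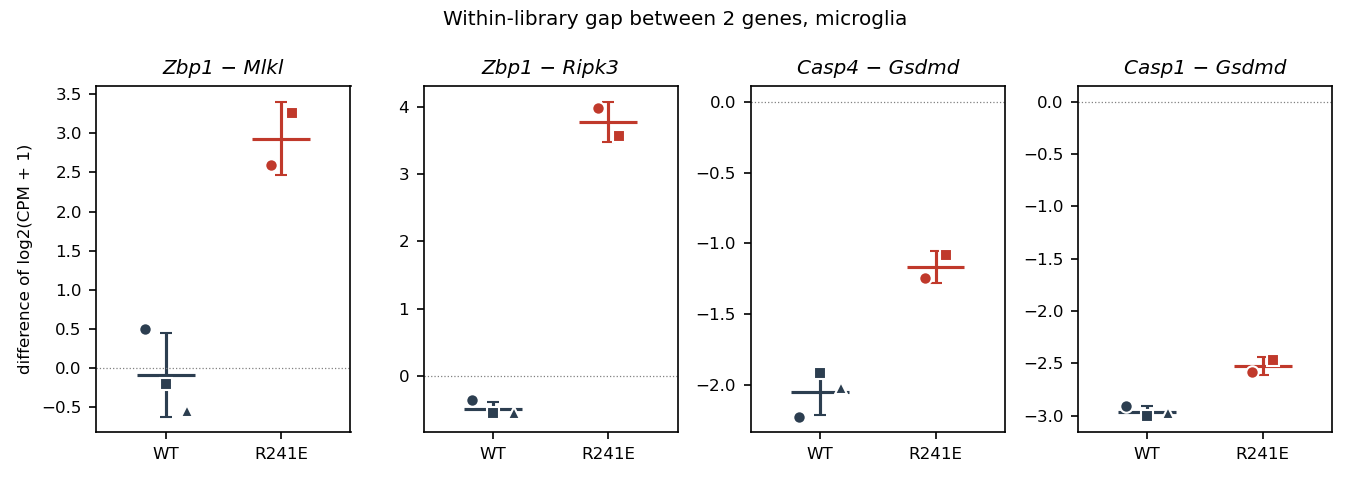
Within-library difference of log2(CPM + 1) between 2 genes in microglia (points for libraries, lines and bars for the mean and SD of each genotype). In each of the 4 panels both R241E points lie above the 3 WT points, by 3.03 on average for Zbp1 over Mlkl and by 0.44 for Casp1 over Gsdmd. The first gene of each pair was itself called higher in R241E microglia.

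The share of nuclei with a UMI was compared after each nucleus had been thinned to 1000 UMIs, which left out 9 to 64 microglial nuclei per library. Zbp1 was read in 2.40% and 2.01% of R241E microglia and in 0.111%, 0.138% and 0.0721% of WT microglia. The share was 4.07% ± 0.378 in WT and 9.43% ± 0.838 in R241E for Casp4, 2.22% ± 0.361 and 8.47% ± 0.626 for Xaf1, and 16.5% ± 2.51 and 23.0% ± 2.66 for Gsdmd, without overlap between the genotypes. Those of Casp8 (22.3% and 22.5%) and Ripk1 (5.92% and 5.57%) overlapped. Mlkl was read in 0.251% ± 0.0708 of R241E and 0.118% ± 0.110 of WT nuclei, with overlap. In the microglial sums 20.4% of the genes tested had both R241E libraries above all WT libraries, a share not taken for thinned nuclei. The smallest exact permutation p was 0.1 (0.2 after adjustment over the 10 genes), the least this design allows. In neurons, at a median of 2612 to 5338 UMIs per nucleus before thinning, no UMI of Zbp1, Mlkl or Ripk3 was found, which allows a share of up to 1.08% in the library with most neurons and 3.13% in that with fewest. Neuronal shares were 0 to 1.04% for Gsdmd and 0 to 4.17% for Casp8. These limits are set by the number of neurons and are no measured background. The Zbp1 shares of R241E microglia also lie under the higher of them. Thinned shares of single libraries therefore do not tell Zbp1, Mlkl and Ripk3 from background at this number of neurons. In the sums not thinned, Zbp1 was at 1.66 and 0 CPM in R241E neurons, from 1 and 0 UMIs. R241E microglia had 29.8 and 35.3 CPM of it. Without thinning, the Zbp1 difference was 6.65 percentage points in place of 2.10.

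In nuclei not thinned, 108 of 1531 R241E microglia had a Zbp1 UMI, 15 had a Mlkl UMI and 6 a Ripk3 UMI. None of these nuclei had Zbp1 with Mlkl or with Ripk3. In 3848 WT microglia 5 had Zbp1, 9 had Mlkl and 13 had Ripk3, and 1 had Zbp1 with Mlkl. Of the 108 R241E nuclei with Zbp1, 56 also had Casp8 and 29 also had Ripk1. Over all 1531 R241E microglia 746 had Casp8 and 246 had Ripk1, and depth was not equalized here. Of the 5 WT nuclei with Zbp1, 3 had Casp8 and 1 had Ripk1. At these counts few joint reads can be seen at all.

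Microglia were next divided by 26 interferon-response genes, a list without the members, into nuclei above the 95th percentile of WT microglia (over 2 UMIs of the list per 1000) and the rest. Interferon-high nuclei made up 42.4% and 33.7% of R241E microglia and 1.77% to 3.10% of WT microglia. In R241E, Zbp1 was at 0.498 ± 0.031 UMIs per 10000 in interferon-high nuclei and at 0.065 ± 0.006 in the others, and 30 of its 36 UMIs lay in the former. Casp4 (1.57 ± 0.142 against 0.859 ± 0.015), Xaf1 (1.32 ± 0.178 against 0.701 ± 0.081) and Tnfsf10 (0.279 ± 0.027 against 0.139 ± 0.025) were also higher in the interferon-high nuclei of both libraries. Ripk1 (0.693 ± 0.223 against 0.553 ± 0.054) was higher too, by little in R241E replicate 2 (0.536 against 0.515). Casp1 (0.392 ± 0.119 against 0.401 ± 0.075) and Gsdmd (2.37 ± 0.231 against 2.83 ± 0.401) were not, and neither was Casp8 (2.58 ± 0.197 against 2.67 ± 0.054). The 97 interferon-high nuclei of WT had Zbp1 at 0.625, 0.263 and 0.233 UMIs per 10000, from 1 UMI per library. This range includes the values of interferon-high R241E nuclei (0.520 and 0.476). A higher Zbp1 level in R241E than in WT nuclei of this kind is thus not shown. The R241E nuclei that were not interferon-high still lay above the WT nuclei of the same kind for Xaf1 (0.217 ± 0.044 in WT), Casp4 (0.441 ± 0.054), Casp1 (0.218 ± 0.071) and Gsdmd (1.86 ± 0.309), with no overlap of libraries, and so, on few UMIs, did Zbp1 and Tnfsf10. In the sums of all microglia 20.4% of the genes tested were also without overlap in this direction. That share was not taken within the split. With the 99th percentile of WT as the limit, Zbp1 was at 0.881 ± 0.039 in interferon-high R241E nuclei and at 0.080 ± 0.012 in the others, and the order of the Casp1 means turned (0.509 ± 0.314 against 0.375 ± 0.047), from 12 UMIs in the former and with the libraries in opposite order. The order of the Ripk1 means turned as well at this limit (0.553 ± 0.437 against 0.618 ± 0.058). The division uses other genes of the same nuclei, so no test was made.

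**Figure D5:**
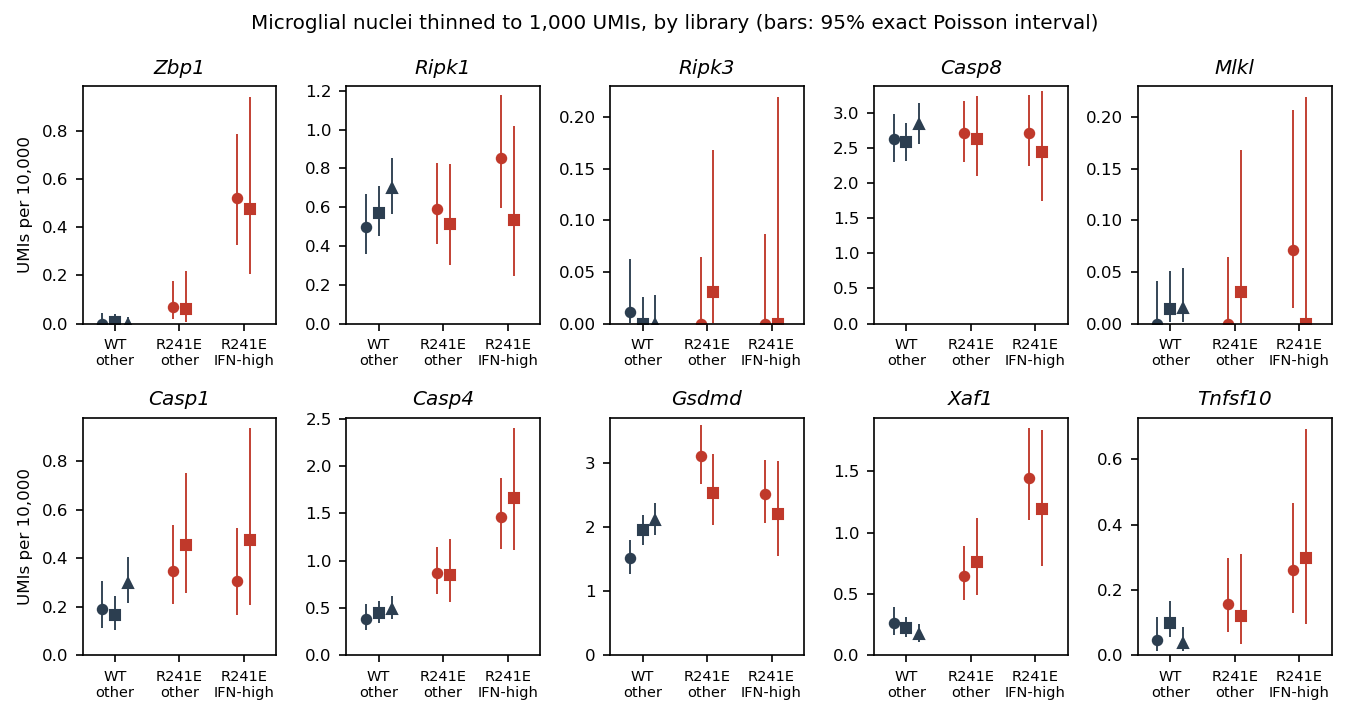
UMIs per 10000 of each gene in microglial nuclei thinned to 1000 UMIs, for WT nuclei that were not interferon-high and for R241E nuclei that were not or were (points for libraries, bars for the exact 95% Poisson interval, which covers counting error only). Of the groups shown, Zbp1 was highest in interferon-high R241E nuclei (0.520 and 0.476), whereas Gsdmd was at 2.55 or more in the other R241E nuclei against at most 2.12 in WT. The few interferon-high WT nuclei are not shown.

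In BAMs, where the driver also acts, 6 of the 10 genes passed the filter and none was called by edgeR or by DESeq2, against 0.937% of 3947 genes tested with edgeR. At an unadjusted p under 0.05 there were 2, Xaf1 and Gsdmd, by either tool, against 323 of all 3947 genes with edgeR and 122 with DESeq2. In 4 of these 6 both R241E libraries were above all WT libraries, as were 11.6% of all genes tested there. Of these 4, Xaf1 and Casp1 passed the filter only with the help of the R241E libraries. Their place above WT was thus partly set by the filter. Xaf1 was at 85.7 and 149 CPM in R241E BAMs, from 28 and 19 UMIs, and at 13.1, 12.5 and 62.8 CPM in WT, from 2, 2 and 11 UMIs. WT replicate 3 was apart from the other WT libraries. The log2 fold change was 1.81 ± 0.52 (adjusted p = 0.12), and without WT replicate 3 it was 3.04 (adjusted p = 0.026). Gsdmd was at 184 and 197 CPM against 118, 68.9 and 114 CPM (0.92 ± 0.30, adjusted p = 0.23), Casp1 differed by 0.74 ± 0.48 and Casp4 by 0.57 ± 0.38 (adjusted p = 0.77 and 0.78). Zbp1, which did not pass the filter, gave 17 and 4 UMIs in R241E and 3, 1 and 0 in WT. P2ry12 was at 551 to 712 CPM in BAMs, with the genotypes overlapping. The difference of the genotype effect between microglia and BAMs was called by edgeR for none of the 8 members tested, against 0.742% of 10920 genes. Of the 8 members 1, Zbp1, had an unadjusted p under 0.05, as had 722 of all genes tested. The difference was 0.34 ± 0.52 for Xaf1 and -0.53 ± 0.31 for Gsdmd, so effects of unequal size are not shown.

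Outside the macrophages few members had enough counts. In astrocytes Xaf1 was at 32.3 and 34.2 CPM in R241E against 9.62, 12.7 and 10.8 CPM in WT, from 51, 18, 4, 4 and 6 UMIs. Both R241E libraries lay above the WT libraries, as in 10.2% of the genes tested, but the log2 fold change of 1.59 ± 0.40 was not called (adjusted p = 0.30, with 0.105% of 8564 genes called). Xaf1 passed the filter in astrocytes, and in mural cells, only through the R241E libraries. The place of these libraries above WT was thus partly set by the filter. R241E replicate 1 gave 133 of the 188 nuclei of astrocyte cluster 16, led by Slit2 and Nnat. In mural cells Xaf1 was at 60.8 and 66.9 CPM against 0, 35.8 and 24.97 CPM (1.37 ± 0.64, adjusted p = 1.00), where edgeR called none of 3862 genes (0%) and had 174 at an unadjusted p under 0.05, and DESeq2 called 0 and had 40. In oligodendrocytes Xaf1 was at 67.9 and 61.9 CPM against 56.1, 31.6 and 43.7 CPM (0.58 ± 0.31, adjusted p = 1.00, with 0.285% of 5613 genes called). The R241E effect on Xaf1 was larger in microglia than in oligodendrocytes by 1.55 ± 0.37 on the log2 scale (adjusted p = 0.0081, class by genotype term with library as a block, 0.721% of 12476 genes called). That call was lost without R241E replicate 1, WT replicate 1 or WT replicate 3 (adjusted p = 0.62, 0.18 and 0.095), where the difference stayed between 1.34 and 1.84 over the libraries left out. Between microglia and astrocytes the Xaf1 difference was 0.60 ± 0.50 and was not called (adjusted p = 0.88, 0.817% of 13956 genes called).

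Ripk1 was tested in every class but mural cells. In neurons it was at 14.9 and 11.2 CPM in R241E against 19.9, 25.9 and 22.6 CPM in WT, and passed the filter only through the WT libraries. The log2 fold change was -0.82 ± 0.43 (adjusted p = 0.68, 0.0113% of 8866 genes called). WT replicate 1 gave 147 of the 190 nuclei of neuronal cluster 20, and R241E replicate 2 gave 46 of the 64 of cluster 9. In fibroblasts the 3 members tested, Ripk1, Casp8 and Gsdmd, differed by 0.24 ± 0.44, 0.29 ± 0.68 and 0.08 ± 0.46, and none was called (0.0172% of 5809 genes). None had an unadjusted p under 0.05 with edgeR or DESeq2, against 413 and 181 of all genes tested. Mlkl gave 6 and 6 UMIs in R241E oligodendrocytes (4.53 and 20.6 CPM) and 3, 0 and 1 UMIs in WT (8.86, 0 and 2.43 CPM), so the genotypes overlapped. Casp8 in oligodendrocytes rested on WT replicate 3, with 12 of 17 UMIs, a library in which Csf1r was at 70.3 CPM in the same sum.

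The wider pathways were described from 4 lists in R241E and WT microglia, where 6.04% of all genes tested were called higher and 9.29% in either direction. Without the members, 6 of the 41 list genes tested were called higher and 1 lower. Of 18 necroptosis genes 15 were tested, 3 were called higher and none lower, with a median log2 fold change of 0.26 (2 of 12 called without the members). Besides Zbp1 these were Adar, which edits and masks double-stranded RNA, at 83.5 and 72.6 against 29.1, 36.4 and 30.6 CPM (1.27 ± 0.15), and Tlr3, an endosomal sensor of double-stranded RNA, at 124 and 125 against 72.4, 81.2 and 93.0 CPM (0.58 ± 0.12). Of 18 pyroptosis genes 15 were tested, 5 were called higher and 1 lower (median 0.26), and without the members 2 of 12 were called higher and 1 lower. Outside the members these were the inflammasome sensors Nlrp1b (0.40 ± 0.09) and Naip2 (0.49 ± 0.10), which rose, and Nlrp3, which fell. Nlrp3 was at 54.9 and 44.3 CPM in R241E against 100.3, 71.3 and 78.9 CPM in WT, a log2 fold change of -0.72 ± 0.16. Over all genes tested the median was -0.00. Naip2 and Nlrp1b have close copies in the genome, so their counts are uncertain. Without R241E replicate 1 the calls of Tlr3, Naip2 and Nlrp1b were lost (adjusted p = 0.074, 0.092 and 0.23), that of Nlrp1b also without WT replicate 2 (0.050), and that of Nlrp3 without R241E replicate 2 (0.093).

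Of 9 death ligands and receptors 4 were tested and 2 were called, the member Tnfsf10 and Tnf, the latter at 16.9 and 11.1 CPM in R241E against 10.9, 1.85 and 2.10 CPM in WT (1.74 ± 0.52). The R241E libraries were above all WT libraries, narrowly so over WT replicate 1. Tnf passed the filter only with the help of the R241E libraries, so its call is partly set by the filter. The call (adjusted p = 0.048) was lost without R241E replicate 1, R241E replicate 2, WT replicate 2 or WT replicate 3 (0.46, 0.061, 0.17 and 0.088) and with DESeq2 (0.66). Fas, Fasl and the TRAIL receptor Tnfrsf10b had too few counts. Of 17 apoptosis genes 16 were tested and 2 were called, the member Xaf1 and the BH3-only gene Bbc3, at 16.3 and 8.995 against 4.45, 6.69 and 5.998 CPM (1.19 ± 0.32). The Bbc3 call was lost without R241E replicate 1, where the change was 0.59 (adjusted p = 0.61), without WT replicate 1 (0.082) and with DESeq2 (0.14). The apoptosis median was -0.05, and 6 of the 16 were higher in R241E.

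The genes most like each member were sought over 35 sums of 7 classes and 5 libraries, which share libraries and depth, so that the correlations are a description. For Zbp1 these were Ifi206, Oas1a and Tgtp2 (Pearson r of log2(CPM + 1) = 0.85, 0.83 and 0.82), for Casp4 5430427O19Rik, Epsti1 and Casp1 (0.92, 0.91 and 0.90) and for Tnfsf10 Raet1e, Sp100 and Gm26740 (0.89, 0.86 and 0.85). For Casp1 they were AC113595.1, Tnfrsf1b and Batf (0.93, 0.92 and 0.92), for Gsdmd Tgfbr2, Fli1 and Ctsh (0.96, 0.95 and 0.94), and for Casp8 Fcer1g, Hpgd and Dennd1c (0.92, 0.92 and 0.91). Ripk1 was nearest to Sgk3, Tbc1d14 and Wwp2 (0.91, 0.88 and 0.87). Xaf1 had the lowest values, with Tbcb, Smim15 and Lipa at 0.78, 0.73 and 0.72. Neighbours of Zbp1 such as Oas1a belong to families of near-identical copies, whose counts are uncertain.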

How the data were processed

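The authors deposited raw counts of UMIs for each gene in each nucleus, made with Cell Ranger 7.0.0 against mm10, per the file headers and labels. Whether intronic reads or strand entered them is not given in the sources used here. Nuclei with 200 to 4500 genes, under 10000 UMIs and under 5% mitochondrial UMIs were kept, clustered without integration (scanpy 1.11.5, Leiden resolution 1, 24 clusters) and named by marker lists. 1 cluster of 53 nuclei stayed unnamed. The naming rule was fixed with the clusters in view. Doublets were treated through the upper limits, since Scrublet called 42 nuclei (0.442%). Counts were summed per library and class and tested where every library held at least 20 nuclei of the class (edgeR 4.0.16, TMM, filterByExpr, genotype only). CPM were computed from the same sums. DESeq2 1.42.0, other normalization, no filter, equal totals, other class rules and single libraries left out were tried. Intervals and floors cover counting error only, and those on log2 fold changes are normal approximations. Scripts were tested on simulated data.

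The members and lists were chosen with earlier results of these data known. All members were named, with each list gene called in microglia and the 3 genes most alike. Each library is 1 mouse by its title. The study's test over nuclei was replaced by sums per mouse. A text on H151 and DMSO accompanies the samples, but no label assigns either, so it was not used. Gene coordinates are RefSeq GRCm38.p6, matched by symbol for all 10 members.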

Additional observations from a re-analysis of the deposited data

Results flagged for a closer look

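The R241E effect on Xaf1 was larger in microglia than in oligodendrocytes, by 1.55 on the log2 scale (edgeR class by genotype term, adjusted p = 0.0081). Xaf1 was higher in 2 of 2 R241E libraries in both classes, by 2.18 ± 0.14 in microglia and by 0.58 ± 0.31 in oligodendrocytes. The call was lost without R241E replicate 1, WT replicate 1 or WT replicate 3 (adjusted p = 0.62, 0.18 and 0.095). The gene was singled out because the test of the difference passed its threshold. No other member passed it against BAMs, astrocytes or oligodendrocytes.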

How the results depend on the processing

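Of the 6 calls among the members in microglia, Zbp1, Xaf1 and Casp4 held under every alternative and when any single library was left out. Between 4 and 6 members were called as libraries were left out. Counts of genes called over the whole class moved more. Without the filter they were 70 in BAMs, 173 in astrocytes, 47 in oligodendrocytes, 528 in neurons, 3 in mural cells and 91 in fibroblasts. With the DESeq2 Wald test they were 5, 15, 9, 91 and 18 in BAMs, astrocytes, oligodendrocytes, neurons and fibroblasts. With mouse number as a replicate block they were 2098 in microglia, 66 in BAMs, 5 in astrocytes, 72 in oligodendrocytes, 101 in neurons, 2 in mural cells and 0 in fibroblasts. The numbers only name the mice, and libraries with the same number did not deviate together (correlations of 0.094 and -0.013). Under the block the members called in microglia stayed at 6, and Xaf1 in BAMs was called (3.13, adjusted p = 4.4e-04), as it was without the filter (adjusted p = 0.014) and by marker-score classes (0.011). With sums thinned to equal totals the counts were 15 in BAMs, 3 in astrocytes, 0 in neurons and 17 in fibroblasts. By marker-score classes they were 71, 171, 65 and 42 in BAMs, astrocytes, mural cells and fibroblasts. Without upper limits the count was 0 in neurons, and without the top Scrublet scores it was 3 in mural cells and 0 in fibroblasts.

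With 1 library left out, the counts ranged from 536 (without R241E replicate 1) to 1547 (without WT replicate 3) in microglia, from 6 to 44 in BAMs, from 0 to 128 in astrocytes, from 6 to 45 in oligodendrocytes, from 0 to 5 in neurons, from 0 to 2 in mural cells and from 0 to 100 in fibroblasts. In a fit with 1 R241E library, that library is assumed to vary as the WT libraries do. Genes with a class by genotype difference from microglia then ranged from 31 to 77 for BAMs, from 22 to 159 for astrocytes and from 2 to 75 for oligodendrocytes. The cause of these shifts was not tested. The genotype difference of the gap of Zbp1 over Ripk3 was 5.41 with a pseudocount of 0.1 CPM and 3.50 by marker-score classes, and from 4.05 to 4.48 with 1 library left out. That of Casp4 over Gsdmd was 0.72 by marker-score classes and from 0.80 to 0.97 with 1 library left out. With the interferon limit at the 99th percentile, Casp4, Xaf1 and Tnfsf10 were at 2.24, 1.82 and 0.350 UMIs per 10000 in interferon-high R241E nuclei. The 3 or fewer UMIs per WT library of Zbp1, and those of Mlkl and Ripk3, limit what these data can show of them.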

Other observations

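Lymphocyte-like nuclei, examined after their values had been seen, carried the highest Zbp1 and Tnfsf10 levels of the R241E classes in which the members were measured. Only R241E replicates 1 and 2 and WT replicate 3 held at least 20 of them (120, 35 and 28 nuclei). Zbp1 was at 154 and 158 CPM in the R241E libraries, from 45 and 14 UMIs, and at 36.2 CPM in the WT library, from 2 UMIs. Tnfsf10 was at 147 and 192 CPM, from 43 and 17 UMIs, and at 90.4 CPM from 5 UMIs. Ripk3 gave 4, 1 and 1 UMIs there, against 6 in all R241E microglia. With 1 WT library no test was made.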
